A study of Macaca mulatta with 38 samples.

Results

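Granulocytes made by transplanted, lentivirally barcoded CD34+ cells were sampled from the blood of 1 rhesus macaque before and after a few barcodes took over their output. The 6 libraries labelled Gr at days 119, 187, 266, 365, 494 and 553 were taken out of the 38 libraries of the series by cell type and day. Days 119, 187 and 266 form the earlier group and days 365, 494 and 553 the later group, with 3 libraries each. The split at day 365 was set with the takeover already known, so the contrast between the groups describes it and is not independent support for it. All libraries came from peripheral blood of the same male animal, ZL34, aged 4 years when its cells were collected. Its CD34+ cells had been mobilised with G-CSF and AMD1300 (spelled as in the labels), transduced with the barcoded lentivirus library at an MOI of 25 and returned after TBI, and it was given 5 mg/kg cidofovir weekly. The event from which the days are counted is not given in the labels. These treatments are shared by both groups, there is no animal without them, and each day is 1 library. The data are counts of barcodes in DNA, with no markers of cell identity, so the Gr label could not be checked and carry-over of other blood cells into a sorted sample could not be measured directly.

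A lentiviral barcode is a short random DNA stretch that the vector places in the genome of a cell and that all its descendants keep. Granulocytes live for only a short time in blood and are made anew all the time from progenitors in the marrow, so their barcodes report recent output. After transplantation, short-lived progenitors usually supply the first cells and longer-lived stem cells take over later. A cell that takes up several vector copies carries several barcodes, and these then appear in fixed proportion wherever its descendants go.

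The barcodes that carried the change are shown first. Their numbers, from bc1 up, rank barcodes by average share across all 38 libraries. The sequences are given as deposited up to the start of the sequencing adapter, with the constant start in lower case and the variable part in capitals. bc1 to bc6 are shown because they made up nearly all late reads.

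bc1: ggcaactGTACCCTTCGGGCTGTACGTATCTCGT
bc2: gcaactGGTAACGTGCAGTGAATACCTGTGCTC
bc3: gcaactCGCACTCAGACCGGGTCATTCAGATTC
bc4: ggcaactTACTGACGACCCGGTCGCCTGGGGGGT
bc5: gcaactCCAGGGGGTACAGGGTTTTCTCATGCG
bc6: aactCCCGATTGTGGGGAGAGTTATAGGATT

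The next 4 were among the 5 highest barcodes of days 119 and 187, and bc11 was the other barcode that reached 1% of reads on a later day.

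bc7: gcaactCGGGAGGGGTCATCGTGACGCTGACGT
bc8: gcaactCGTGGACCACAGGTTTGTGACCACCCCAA
bc9: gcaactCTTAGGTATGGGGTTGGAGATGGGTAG
bc10: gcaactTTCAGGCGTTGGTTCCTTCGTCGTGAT
bc11: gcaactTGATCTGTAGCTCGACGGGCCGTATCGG

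The last set contrasts barcodes that were still listed at day 365 (bc22) with barcodes of 0.3 to 2% of earlier reads that were not (bc32, bc33, bc39 and bc54).

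bc22: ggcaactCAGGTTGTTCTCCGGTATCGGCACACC
bc32: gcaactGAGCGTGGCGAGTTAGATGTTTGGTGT
bc33: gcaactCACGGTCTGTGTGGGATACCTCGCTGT
bc39: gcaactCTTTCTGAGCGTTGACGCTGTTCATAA
bc54: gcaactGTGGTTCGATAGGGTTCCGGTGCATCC

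The variable part was 27 bases in bc1 to bc7, 29 in bc8 and 28 in bc11, counted from the base after the constant AACT. The starts differed: bc1 and bc4 carry 1 base more and bc6 lacks 2 bases of the usual start gcaact, while the variable parts of all 6 have the same length. 33 barcodes reached 1% of a granulocyte library on at least 1 of the 6 days. Among them, no pair of variable parts was closer than 10 edits (substitutions, insertions or deletions), and no pair within bc1 to bc6 closer than 13. None of the 6300 variable parts that could be delimited lay within 3 edits of any of the 33, and the closest was 5 edits away. No barcode of 1% or more therefore had a near copy among those compared.

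Kept reads per library ran from 2584757 to 2849028 on the earlier days and from 3622722 to 3805440 on the later days. The smallest count was 101, and a 0 was therefore treated as standing for at most 100 reads. That is 0.00351% to 0.00387% of an earlier library and 0.00263% to 0.00276% of a later one. This limit is inferred from the counts. Where a barcode is called lost below, it means listed at 0 under this limit, and not that its cells were gone. For single named barcodes and for groups in the 6 libraries, exact (Clopper-Pearson) 95% intervals of the shares reach at most 0.0569 percentage points to either side, and they cover counting error only, since PCR reads are not independent molecules. Spreads over days are given as SD.

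Barcodes that vary together were grouped by their correlation over the libraries other than granulocytes. The granulocyte libraries entered only the choice of candidates, which had to hold 1% of reads in some library of the series. In the whole series 51 barcodes held 1% or more somewhere, and 49 of them fell into 8 groups of 3 to 9 members, with Pearson's r of at least 0.95 for every pair over the 31 other libraries. bc11 and bc87 stood alone. Group 1 is bc1 to bc6, group 2 is bc7 to bc10, and group 5 is bc22, bc27 and bc29. Group 3 has 7 members from bc12 to bc31, group 6 has 8 from bc25 to bc46 and group 7 has 9 from bc32 to bc44. Groups 4 and 8, which have 7 and 5 members, had a higher share in T cells than in B cells, monocytes or granulocytes on each day from 187 to 553 of the 6 compared.

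**Figure D1:**
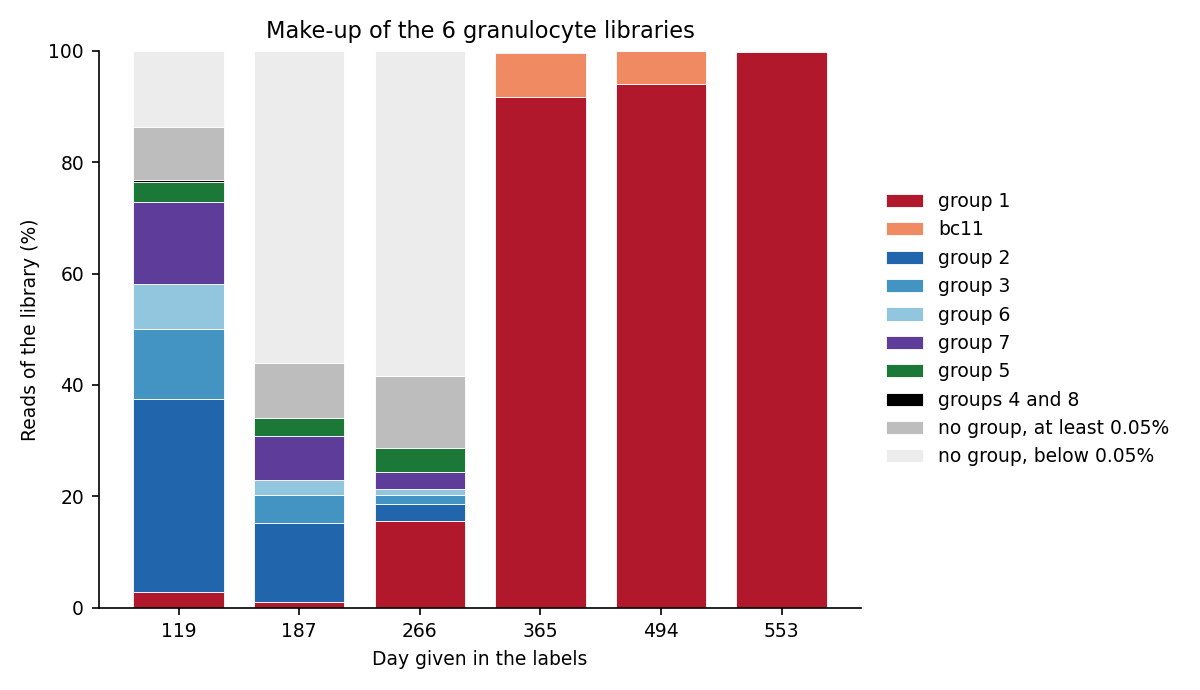
Stacked percent of reads in each of the 6 granulocyte libraries, by barcode group, bc11 and barcodes in no group (split at 0.05% of reads), with the day on the x axis. Groups 2, 3, 6 and 7 filled 70.0% of day 119, rare ungrouped barcodes filled most of days 187 and 266, and group 1 with bc11 filled nearly all of the 3 later libraries.

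The granulocyte pool passed through 3 states in these libraries: a narrow one at day 119, a wide one at days 187 and 266, and one of only a few barcodes from day 365. The effective number of barcodes, a diversity measure obtained by exponentiating the Shannon entropy, was 82.1, 1185 and 1423 on the earlier days and 7.06, 6.77 and 6.01 on the later days. The 2 groups of days do not overlap in it, and the 3 later values lie close together. On the log2 scale the mean was 9.01 ± 2.30 (SD, n = 3 days) before and 2.72 ± 0.12 after, a difference of -6.29 (two-sided exact permutation p = 0.1). That p is the smallest that 3 against 3 days can give, so this permutation test cannot pass 0.05 here.

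Counts of listed barcodes followed the same course. They were 2013, 4729 and 4871 on the earlier days and 69, 22 and 18 on the later days. Above 1 common limit for all 6 libraries, 0.00387% of reads, they were 1940, 4729 and 4468, then 31, 13 and 17, and the earlier and later days again did not overlap. The barcodes needed to cover 90% of reads numbered 310, 2956 and 2997 on the earlier days and 6 on each later day.

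**Figure D2:**
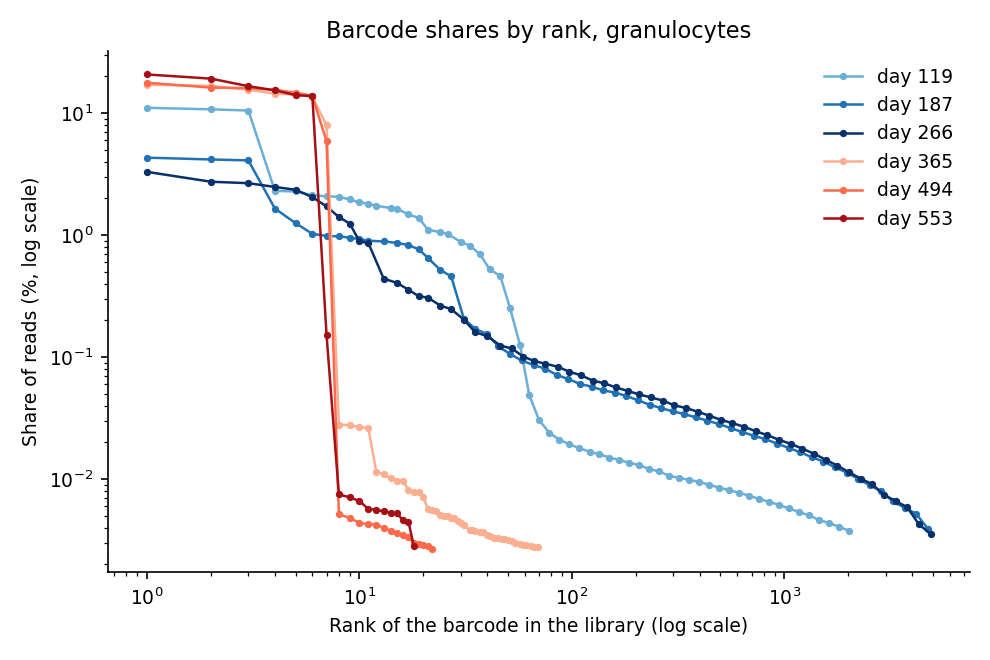
Share of reads (y axis, log scale) against rank of the barcode within its library (x axis, log scale), 1 line per granulocyte library, drawn at selected ranks. The lines of days 187 and 266 nearly coincide beyond rank 30 or so, while the later libraries are below 0.03% after rank 7.

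At day 119 a small set of grouped barcodes stood above many rare ones. bc7, bc8 and bc9 held 11.1%, 10.7% and 10.5% of reads and together 32.3%. Their group mate bc10 held 2.28% and bc12 of group 3 held 2.30%. In all, 26 barcodes reached 1% and summed to 69.0% of reads, and every one of them belonged to a group: 9 to group 7, 6 to group 3, 4 each to groups 2 and 6, and 3 to group 5. Any barcode at 1% was a candidate for grouping by rule, and of the candidates only bc11 and bc87 stayed outside the groups. Outside the groups only bc11 reached 1% on any of the 6 days, at days 365 and 494. By group, group 2 held 34.6% at day 119, group 7 14.8%, group 3 12.6%, group 6 8.01%, group 5 3.59% and group 1 2.90%. Between 0.1% and 1% lay 31 barcodes with 16.9% of reads, and 1953 barcodes below 0.05% together held 13.9%.

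At days 187 and 266 the same grouped barcodes were still present but lower, and rare barcodes held most reads. bc7 was at 11.1%, 4.10% and 0.888% on the 3 earlier days, bc8 at 10.7%, 4.31% and 0.862%, and bc9 at 10.5%, 4.17% and 0.829%. Each day was lower than the one before in all 3 barcodes. Groups 2, 3, 6 and 7 summed to 70.0%, 29.9% and 8.63%. From day 119 to day 266 group 2 was 11.8-fold lower, group 3 7.92-fold, group 6 7.0-fold and group 7 4.99-fold. These are single libraries, so the differences between groups were not tested.

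Group 5 did not share that course. It held 3.59%, 3.16% and 4.37% on the 3 earlier days, with bc22 at 1.38%, 1.26% and 1.72%. bc27 was at 1.18%, 0.976% and 1.41% and bc29 at 1.03%, 0.926% and 1.24% (both named as the remaining members of the group). Its members kept within 1.38-fold of each other on each of these days and on day 365. bc54, which belongs to no group, was as even, at 0.417%, 0.380% and 0.406%.

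The share of reads in barcodes below 0.05% was 13.9% at day 119, 56.1% at day 187 and 58.4% at day 266. These were 1953, 4563 and 4669 barcodes. Most of the gain lay in barcodes of 0.01% to 0.05%, of which there were 286, 2060 and 2109, with 4.26%, 39.7% and 42.4% of reads. Barcodes that were below 0.05% at day 119 and listed on all 3 days numbered 1438, and their median ratio of day 187 to day 119 was 2.70, with 93.1% of them higher at day 187. The 51 barcodes at 0.05% or more at day 119 and listed on all 3 days had a median ratio of 0.397, and 0 of 51 were higher. From day 187 to day 266 the median ratio was 1.07 in the former and 0.372 in the latter. These ratios leave out barcodes at 0 at day 187 or 266 (of 2013 listed at day 119, 1688 were listed at day 187), which raises the ratios of rare barcodes. The split by the day 119 share, the denominator, and the fixed sum of 100% within a library also favour opposite ratios, so no more is read from them.

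The wide output of days 187 and 266 was made largely of the same barcodes. 3298 barcodes were listed on both days, 69.7% of those of day 187 and 67.7% of those of day 266, and they held 88.2% of reads on each. Day 119 shared 1688 barcodes with day 187, which held 98.0% of day 119 reads and 71.0% of day 187 reads. Of the barcodes of day 187, 3041 were listed at 0 at day 119, with a median share of 0.00758% and 29.0% of reads together. None of them exceeded 0.0631% at day 187. 2287 of the 3041 had been listed at day 32 or 119 in some lineage, most often in B (1710), so 754 were seen for the first time. The B library of day 32 also listed the most barcodes of that day, 15815.

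The rare barcodes of granulocytes were compared with the other libraries of the same day, since reads from another cell type in the sorted sample would appear among them. At day 187, 61.7% of the 4563 rare barcodes were also listed in B cells, 42.0% in monocytes, 14.2% in T cells and 25.5% in none of the 3. At day 266 these were 51.8%, 51.2%, 30.3% and 24.6% of 4669. In all, the B, monocyte and T libraries listed 13465, 3077 and 2158 barcodes at day 187, and 8981, 3670 and 4565 at day 266. A library that lists more barcodes has more room for overlap, so these percentages do not rank the lineages. Over the rare barcodes listed in both libraries, log2 shares in granulocytes correlated with those in monocytes at r = 0.38 at day 187 and 0.45 at day 266, and with those in B cells at 0.25 and 0.26. Barcodes listed in B and not in monocytes held 14.5% of granulocyte reads at day 187 and 8.92% at day 266, and those in monocytes and not in B 6.42% and 11.4%. These r values are across barcodes that share a library, with 1916 to 2814 barcodes each, and are given as a description. What part cells of another type had in the rare reads was not tested.

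**Figure D3:**
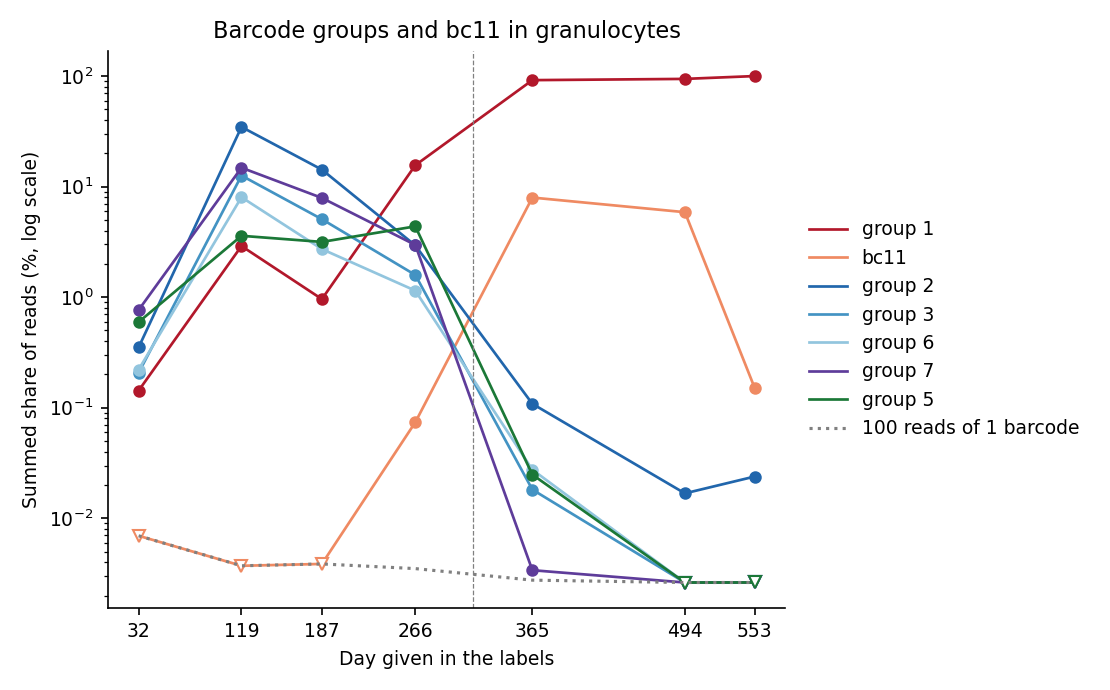
Summed share of reads (y axis, log scale) of groups 1, 2, 3, 5, 6 and 7 and of bc11 in the granulocyte libraries of day 32 and the 6 days compared. Open triangles mark a listed 0, drawn at 100 reads of 1 barcode (dotted line), and the dashed line parts the earlier from the later days. Group 1 passed the others between days 187 and 266, and group 2 was the only one of the other 5 groups still listed at days 494 and 553.

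Group 1 held 2.90%, 0.960% and 15.6% of reads on the earlier days and 91.7%, 94.1% and 99.8% on the later days. The earlier values are all below the later ones, and day 187 is the lowest: the share there was 3.02-fold lower than at day 119. It was 16.2-fold higher at day 266 than at day 187, and another 5.88-fold higher at day 365. The mean was 6.48% ± 7.94 (SD, n = 3 days) before and 95.2% ± 4.17 after, a difference of 88.7 percentage points (two-sided exact permutation p = 0.1, again the smallest that 3 against 3 allows). Its 6 members stayed close to a fixed mix although the correlations that formed the group did not use these libraries. bc1 made up 18.3% to 23.4% of the group over the 6 days, bc2 14.9% to 19.2%, bc3 13.3% to 17.2%, bc4 15.4% to 21.1%, bc5 12.7% to 15.8% and bc6 13.7% to 17.6%. The largest member was at most 1.75-fold above the smallest, at day 119.

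Single members show the same course. bc1 was at 0.678%, 0.195% and 3.30% on the earlier days and 16.7%, 17.8% and 20.8% on the later days. bc2 was at 0.467%, 0.143% and 2.48%, then 17.1%, 16.0% and 19.2%. In both, every later day is above every earlier day. Already at day 32 all 6 were listed in granulocytes, with 0.143% of reads in all, so none of them was new to granulocytes when the share grew.

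bc11 was high at days 365 and 494 and low again on the last day. It was listed at 0 on the first 3 granulocyte days, 32 included, and from day 266 on it held 0.0738%, 7.95%, 5.86% and 0.151%. Day 365 was 107.7-fold above day 266, and day 494 was 38.8-fold above day 553. In monocytes bc11 was listed earlier and held 1.23%, 3.38% and 6.47% on days 187, 266 and 365. The granulocyte library of day 494 stood apart from other lineages of that day: bc11 held 0.271% in B, 0.190% in T, 0.0525% in monocytes, 0.0724% in the EOS library and 0.0463% in nRBC. With group 1 it accounted for 99.6%, 99.9% and 99.9% of granulocyte reads on the 3 later days.

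By day 365 nearly all barcodes of the earlier granulocytes were listed at 0. Of 6488 barcodes listed on some earlier day, 6426 were lost by day 365, which is 99.0%, and 62 were still listed. The lost barcodes had held 42.9%, 73.3% and 72.6% of reads on days 119, 187 and 266. For the first of these days most of that was in 35 lost barcodes of 0.05% or more, with 29.5% of reads. At day 266 most was in 4651 rarer ones, with 57.9%. Only 5 of the 6426 were listed in granulocytes again, all at day 494 with 0.00284% to 0.00478% of reads: bc531, bc565, bc641, bc755 and bc3296, named after their values were seen.

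**Figure D4:**
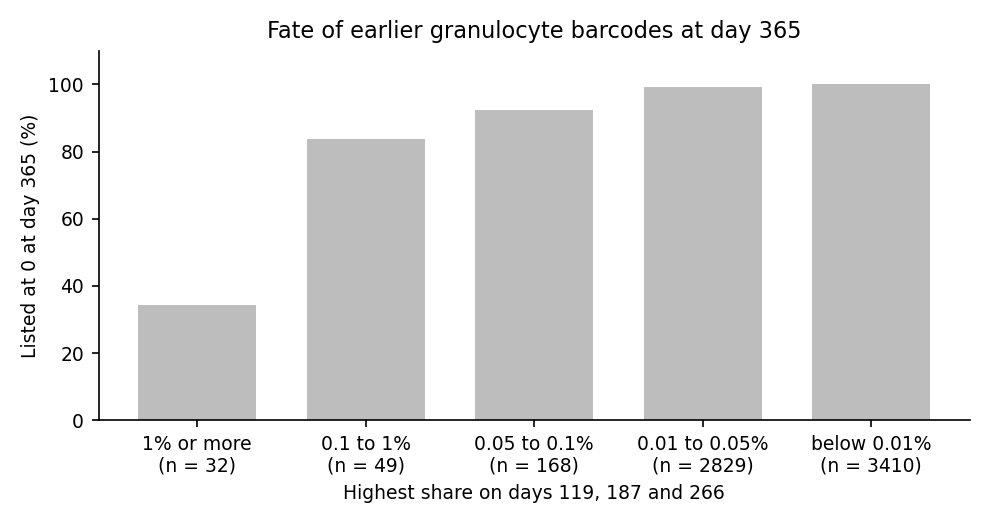
Percent of earlier granulocyte barcodes listed at 0 at day 365 (y axis from 0), by the highest share each had on days 119, 187 and 266 (x axis, with the number of barcodes). The lost percent was 34.4% among barcodes that had reached 1% and above 99% among those below 0.05%. The limit favours this order, since a lower share reaches a listed 0 after a smaller fall.

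The lost percent was higher the lower the earlier share had been. The limit alone favours this order, since a barcode of lower share is listed at 0 after a smaller fall. Whether rare barcodes fell more than others therefore cannot be read from it. 11 of the 32 barcodes that had reached 1% on an earlier day were lost, 41 of 49 at 0.1% to 1%, 155 of 168 at 0.05% to 0.1%, 2810 of 2829 at 0.01% to 0.05% and 3409 of 3410 below that. If each lost barcode sat at the limit, together their reads would come to 17.7% of the kept reads of day 365. For the rare barcodes the data show only that each was at or under 0.00276% of reads.

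For barcodes of at least 0.05% at day 266 the size of the change can be given or bounded from below. Outside group 1 and bc11 there were 195 such barcodes, of which 33 were listed at day 365. These 33 were 12.6-fold to 243-fold lower than at day 266, with a median of 29.7-fold. A fold is measured only where a barcode stayed above the limit, so larger falls from the same share are left out of this median. All barcodes outside group 1 and bc11 together held 84.3% of reads at day 266 and 0.367% at day 365. The 162 lost ones were at least 18.2-fold to at least 155-fold lower. bc22, with the highest share of the 195 at day 266, had the most room for a measured fall. It was 243-fold lower, the largest measured change, and the members of its group 5 were 146-fold to 243-fold lower. bc7, bc8 and bc9 of group 2 were no more than 33.8-fold lower, and bc10 12.9-fold. Group 7 lost 8 of its 9 members by day 365, bc32, bc33 and bc39 among them. bc33 was at 1.85%, 0.90% and 0.427% on the earlier days and then at 0 on all 3 later days, at least 155-fold lower than at day 266. bc32 was at 1.96%, 0.983% and 0.307% and bc39 at 1.70%, 1.02% and 0.335%, also with 0 on every later day. bc54, so even before, was lost as well, at least 147-fold lower. The bounds set the 0 at 100 reads. The order of these 5 groups at day 365 was unlike that of day 266. Group 5 had been highest at day 266 with 4.37%, ahead of group 7 with 2.97% and group 2 with 2.94%. One library later group 2 held 0.109%, group 6 0.0275%, group 5 0.0248%, group 3 0.0182% and group 7 0.00340%. These sums count a listed 0 as 0, though each such member could hold up to 0.00276%. Listed at day 365 were 4 of 8 members of group 6, 5 of 7 of group 3 and 1 of 9 of group 7. The place of group 7 against groups 3 and 5 is therefore not resolved. With 1 library a day, these differences have no test.

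**Figure D5:**
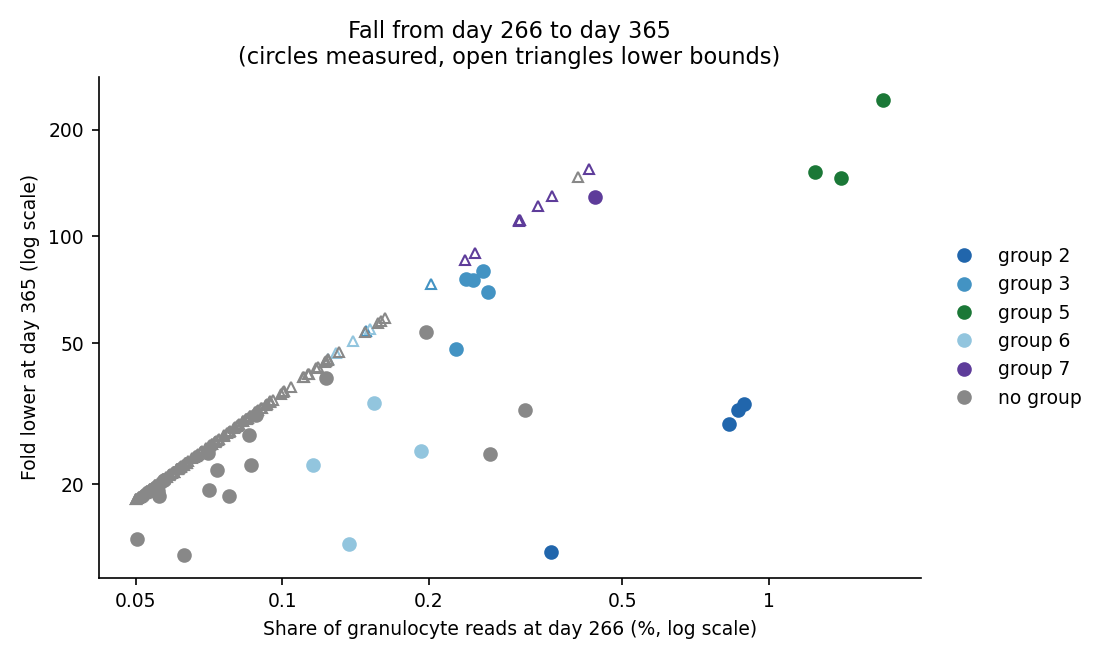
Fold by which a barcode was lower at day 365 than at day 266 (y axis, log scale) against its share at day 266 (x axis, log scale), for the 195 barcodes of at least 0.05% at day 266 outside group 1 and bc11. Filled circles are measured folds of 33 barcodes. Open triangles are lower bounds for 162 barcodes listed at 0, which lie on a line because the bound is the share over the limit. bc7, bc8 and bc9 of group 2, at most 33.8-fold lower, lie below the bounds of group 7, which start at 85.9-fold, and bc22 of group 5 is highest.

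What remained beside group 1 and bc11 was small, and 8 of the 75 barcodes listed on a later day were at 0 on all earlier days. These minor barcodes numbered 62 at day 365, 15 at day 494 and 11 at day 553, with 0.367%, 0.0552% and 0.0602% of reads. The highest single one held 0.0280%, 0.00515% and 0.00747%. At day 553 the 11 were the 4 members of group 2, with 0.0239% together, and the 7 members of group 4, with 0.0364%. Group 4 was listed at 0 on all 3 earlier days in granulocytes and held 0.0389% at day 365 and 0.0143% at day 494. In T cells of the 3 later days group 4 held 7.46%, 32.9% and 8.74%. All 11 minor barcodes of day 553 were listed in T cells of that day, where they held 15.5% of reads, and the ratio of granulocyte to T share ran from 0.00199 to 0.00951. Of the same 11, 9 were also listed in B of that day, at ratios of 0.331 to 1.07, and 5 in monocytes, at 1.02 to 2.06. At day 365, 49 of 62 were listed in T, 58 in B and 34 in monocytes. At day 494, 8 of 15 were listed in T, 11 in B and 3 in monocytes. The T, B and monocyte libraries of day 365 listed 3530, 8288 and 197 barcodes in all. At day 494 they listed 1019, 3296 and 12, and at day 553 they listed 3142, 7935 and 13. A 0 at day 494 allows 0.0131% of reads in T and 0.0127% in B, above every minor granulocyte barcode of that day. The overlap counts therefore do not rank the lineages. Whether T or B cells in the sorted sample gave the reads of the minor barcodes was not tested.

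Most of the lost barcodes were still listed in lymphoid cells. Of the 6426, 3741 (58.2%) were listed in B cells of day 365 with 58.0% of B reads, 1877 (29.2%) in T cells with 36.1% of T reads, and 128 (1.99%) in monocytes with 0.656% of their reads. The B, T and monocyte libraries of day 365 listed 8288, 3530 and 197 barcodes in all. These totals limit how many lost barcodes each can list, so the counts do not rank the lineages. From day 365 on, 5548 were listed in some library of the series, 5212 in B, 3663 in T and 131 in monocytes, and 878 (13.7%) in none. T has the most libraries from that day on and monocytes the fewest of these lineages, so these counts are not on equal terms. Group 7 shows this in T cells: all 9 members were listed on days 365, 494 and 553, with 1.79%, 2.38% and 1.04% of reads. In B cells 9, 2 and 4 of them were listed on these days, with 0.108%, 0.0417% and 0.0294%. In monocytes 8 were listed at day 365, with 0.0641% of reads, and 0 at days 494 and 553.

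Single barcodes were also compared between the earlier and later days by edgeR's quasi-likelihood test, with Benjamini-Hochberg adjustment. This test says little here, since all 138 barcodes that passed the filter of 0.05% of reads in at least 2 libraries were called: 7 of 138 higher later (5.07%) and 131 lower (94.9%), or 100% in all. The 7 are group 1 and bc11. None of the 131 reached 0.05% on a later day, so all of them passed the filter through the earlier days alone and could differ in 1 direction only, and 97 of them were at 0 on all later days. bc11 passed in turn through the later days. For these barcodes no p is given. bc11 had 0.0246% ± 0.0426 (SD, n = 3 days) before and 4.66% ± 4.04 after, and bc7 had 5.35% ± 5.20 and 0.0124% ± 0.0121. The test also takes serial days of 1 animal as independent samples, with the split known. The 6 members of group 1 were above 0.05% on every day, so the filter did not fix their direction. The split did favour it, being set with the takeover known, and the adjustment ran over 138 barcodes that were all called. Their p-values are therefore given as a description and not as support. bc1 had 1.39% ± 1.67 before and 18.4% ± 2.08 after, a log2 difference of 3.73 ± 1.58 (SE, edgeR's adjusted p = 0.0194). That difference was 3.40 without day 119 (edgeR's adjusted p = 0.0984), 5.40 without day 266, 7.51 with TMM factors, another scaling of the libraries (edgeR's adjusted p = 0.187), and 8.05 by DESeq2. The direction held in each of these, while bc1 was also no longer called without day 494 (edgeR's adjusted p = 0.0576), without day 553 (0.0772) and with no filter (0.269). The higher calls were 0 without day 119, 4 without day 494 and 1 without day 553, and 1 with TMM factors, which was bc11. In all, 39 barcodes were called without day 187 and 52 without day 266, when fewer passed the filter.

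Monocytes are the lineage closest to granulocytes, with a library on each of the 6 days. The effective number in monocytes was 49.7, 145 and 145 on the earlier days, against 82.1, 1185 and 1423 in granulocytes, so the wide phase was larger in granulocytes on both days. On the later days it was 7.65, 6.01 and 6.03 in monocytes, against 7.06, 6.77 and 6.01, with 197, 12 and 13 barcodes listed in monocytes. The late narrowing was therefore not particular to granulocytes. Over the 6 days the mean log2 ratio of granulocytes to monocytes was 1.18 (SD 1.56, higher on 4 of 6 days, two-sided exact sign-flip permutation p = 0.125, adjusted p = 0.188). The group 1 share was lower in granulocytes by a mean of -7.19 percentage points (SD 10.6, higher on 2 of 6 days, exact permutation p = 0.188, adjusted p = 0.188). It was 14.6% and 41.1% in monocytes at days 187 and 266, against 0.960% and 15.6%. On the later days it was 91.7%, 99.9% and 99.8% in monocytes, against 91.7%, 94.1% and 99.8%. Neither difference passed over the 6 days, and the p was adjusted over the 2 comparisons.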

How the data were processed

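The deposited data are raw read counts in a single table of 44423 sequences, each 50 bases long, by 38 libraries. That they are counts was read from the values, which are whole and whose column sums vary. Per the labels' protocols, retrieval PCR used 28 cycles on 200 ng of DNA. The smallest count in the table is 101. The barcode caller and the low-count rule were not given in the sources used here.

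Shares are percent of a column sum. Members, split and lists were chosen with earlier results of these data known. Groups joined barcodes of at least 1% in some library by complete linkage of Pearson's r on log2(percent + 0.01). Group 1 was identified by its share in the nRBC libraries, the highest on average among groups. Barcodes named were group 1, the 5 highest of each of the 6 libraries, the 3 highest lost ones of each earlier day and among barcodes of at least 0.5% the 3 called with the largest log2 difference each way. edgeR 4.0.16 was run with column sums as library sizes at an adjusted p under 0.05. DESeq2 1.42.0 was an alternative, as were TMM factors, other filters, other indices, other groupings and leaving out each day. Tests were tested on simulated data. Python 3.11.15, scipy 1.17.1 and R 4.3.3 were used. Serial days of 1 animal are not biological replicates, so p-values measure only the spread between these libraries. No batch is given in the labels.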

Additional observations from a re-analysis of the deposited data

How the results depend on the processing

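The late minus early difference in log2 effective number kept its direction throughout: -3.72 with the inverse Simpson index, -6.29 with libraries thinned to the smallest sum, -7.64 with groups summed, and -7.62 to -5.56 leaving out 1 day. The group 1 difference was 88.7 points under each other r, pseudocount and set of libraries tried, which each gave the same 6 members, and 85.9 to 93.3 points leaving out 1 day. The granulocyte to monocyte difference in log2 effective number was 0.80 with the inverse Simpson index and 0.76 to 1.44 leaving out 1 day, and that in group 1 share -9.02 to -3.53 points, none passing. Lost by day 365 were 99.0% of earlier barcodes also when a 0 on all 3 later days was required, 98.8% to 99.1% leaving out an earlier day, and 83.1% of those that had reached 0.05%. The edgeR count of 138 was 1472 with the filter at 0.01%, 2835 with none, 105 with TMM factors, 102 by DESeq2, and 39 to 138 leaving out 1 day, with 39 without day 187 and 52 without day 266. Of 220 recalculated values of named barcodes 0 changed direction and 42 no longer passed, among them group 1 with TMM factors (adjusted p of bc1 0.187), with no filter (0.269) and without day 119 (0.0984). The 0 reversals carry no weight, since the filter or the split, set with the takeover known, favoured 1 direction for each named barcode. For earlier against later granulocyte days no paired analysis was possible because each day has 1 library and replicate numbers only name days, whereas granulocytes and monocytes were matched by day. Depth limits the rare barcodes most, as shares under 0.00387% cannot be compared between days.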

Other observations

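The granulocyte library of day 32 differed from all 6 later ones. It listed 8820 barcodes at an effective number of 8050, its highest barcode, bc22, held 0.240% of reads, and 97.6% of reads lay in barcodes below 0.05%. Only 518 of the 8820 were listed again at day 119, where they held 82.4% of reads, and 1095 at day 187, where they held 49.5%. Every member of groups 1, 2, 3, 5, 7 and 8 was already listed at day 32, but only 6 in group 6, which has 8.

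Within group 2, bc10 did not keep a fixed ratio to bc7. From day 119 to day 553 the ratio in granulocytes was 0.206, 0.402, 0.401, 1.05, 1.07 and 0.933. In T cells of the same days it was 0.120, 0.90, 0.979, 1.06, 1.14 and 0.922. In monocytes it was 0.233, 0.959, 0.992 and 1.37 up to day 365 and 0.890 at day 553, with bc7 at 0 at day 494. In B cells it was 0.224, 1.14, 0.559, 1.41, 0.652 and 1.16. At day 119 the granulocyte ratio was nearer to monocytes and B cells than to T cells, and at days 187 and 266 it was below all 3. On the 3 later days it was close to that of T cells, and at day 553 also to that of monocytes. Late granulocyte values rest on 151 to 269 reads of bc7 at days 494 and 553.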
